A study of Rattus norvegicus with 4 samples.

Results

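Toll-like receptors (TLRs) and C-type lectins recognise molecules of microbes and of damaged tissue. The genes described here are the rat rows whose symbol is Tlr followed by a number alone, or starts with Clec and a number, with Clec3b left out. The rule takes 41 of the 17899 rat genes in the table, 13 Tlr and 28 Clec genes. Of these, 31 (10 Tlr and 21 Clec genes) had at least 1 TPM (the table's unit, a gene's share of all transcripts corrected for gene length) in at least 2 libraries. They were among the 13371 genes tested, and the other 10 are given as levels only.

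The libraries were bulk RNA-seq of synovium, the lining tissue of the joint, from rats labelled as having osteoarthritis. The library AdMSC 1 came from tissue injected with human AdMSCs, the library SyMSC 1 from tissue injected with human SyMSCs, and the libraries PBS 1 and PBS 2 from tissue that received PBS, a buffered salt solution. AdMSC and SyMSC are the labels' names for human mesenchymal stem cells of different sources. Synovium was collected 1 day after the injection of human cells, and the titles place PBS 1 with AdMSC 1 (Ad) and PBS 2 with SyMSC 1 (Sy). The strain, age, sex and immune state of the rats, the way osteoarthritis was induced and the number of animals per library are stated in none of the labels. The titles of both PBS libraries also carry the word mix, and what was mixed is not stated, so PBS here means only the treatment label. Whether transcripts of the injected human cells add to the rat gene values was not tested. Each cell source had 1 library, so the injected group (n = 2) joins both sources. No label ties the libraries to separate animals, so each p-value measures only the spread between these libraries, which may be technical. The lubricin gene Prg4, which marks the synovial lining and was chosen as a check of the tissue after its values were seen, lay between 2448 and 4192 TPM in the 4 libraries. Since TPM carries no read depth, no value has a counting interval.

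TLRs are membrane receptors with a leucine-rich outer part and an inner TIR domain that recruits adaptors such as MyD88. TLR2 pairs with TLR1 or TLR6 to bind bacterial lipoproteins, TLR4 binds lipopolysaccharide with the co-receptors CD14 and MD-2, TLR5 binds flagellin, and TLR3, TLR7, TLR8, TLR9 and TLR13 sense nucleic acids inside endosomes. Lectins such as Dectin-1 (gene Clec7a), Mincle (Clec4e) and MCL (Clec4d) signal through the kinase SYK and the adaptor CARD9, the latter pair with the Fc receptor gamma chain. Others carry inhibitory motifs. In the joint these receptors are known above all from macrophages, dendritic cells and neutrophils. Some genes that carry the Clec name encode no pattern receptor. Clec11a encodes a secreted growth factor, Clec14a an endothelial surface protein, Clec3a a cartilage protein, and Clec16a a protein of membrane traffic and autophagy. The label therefore describes most but not all of the genes that the rule takes.

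In RefSeq's gene table of the assembly GRCr8, in which all 41 gene IDs were found, many of these genes stand side by side. On chromosome 4, Clec4a1, Clec4a3, Clec4a2, Clec4a, Clec4b2, Clec4d and Clec4e follow each other with 0 protein-coding genes between neighbours, and so do Clec12b, Clec1b, Clec9a, Clec1a and Clec7a. On chromosome 14 the neighbours are Tlr6, Tlr1 and Tlr10, and on the X chromosome Tlr7 and Tlr8. RefSeq start windows (GRCr8, 250 bases before to 50 after the annotated start) were found for 36 of the 41 genes. The 250 bases before the start, 5′ to 3′ on the gene's strand, are shown for the 4 activating lectins with the largest changes after injection. Capitals mark matches to the letters TTNNGNAA on either strand, a short form of the site bound by C/EBP factors, which act in myeloid cells.
Clec4e, chr4:158298468-158298717, minus strand: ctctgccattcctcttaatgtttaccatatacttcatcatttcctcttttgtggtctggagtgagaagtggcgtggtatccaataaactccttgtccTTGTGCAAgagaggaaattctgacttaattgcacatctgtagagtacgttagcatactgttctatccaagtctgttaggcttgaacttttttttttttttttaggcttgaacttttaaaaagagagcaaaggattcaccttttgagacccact
Clec4d, chr4:158275093-158275342, plus strand: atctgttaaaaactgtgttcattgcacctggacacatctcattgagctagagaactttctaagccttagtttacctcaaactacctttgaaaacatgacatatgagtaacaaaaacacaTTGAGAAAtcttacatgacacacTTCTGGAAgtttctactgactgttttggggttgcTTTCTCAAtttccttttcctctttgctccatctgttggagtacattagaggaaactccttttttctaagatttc
Clec5a, chr4:70383507-70383756, minus strand: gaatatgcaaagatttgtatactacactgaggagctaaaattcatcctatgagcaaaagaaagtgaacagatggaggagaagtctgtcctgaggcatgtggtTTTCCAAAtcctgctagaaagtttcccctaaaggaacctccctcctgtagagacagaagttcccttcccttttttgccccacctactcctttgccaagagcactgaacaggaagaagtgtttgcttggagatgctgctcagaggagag
Clec7a, chr4:164599828-164600077, minus strand: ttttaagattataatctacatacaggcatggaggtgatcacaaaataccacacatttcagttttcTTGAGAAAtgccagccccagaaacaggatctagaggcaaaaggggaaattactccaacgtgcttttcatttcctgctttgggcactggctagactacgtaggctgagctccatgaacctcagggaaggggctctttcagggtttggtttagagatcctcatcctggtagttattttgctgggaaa
Each of these stretches held at least 1 match, and Clec4d held 3. The match of Clec4e, TTGTGCAA, began at position -153 from the start. A match is a description of letters, not a binding site.

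The following pair is shown because the genes are neighbours of the same family and differed in outcome, since Clec4a2 rose after injection and Clec4a did not pass the test.
Clec4a2, chr4:157934346-157934595, plus strand: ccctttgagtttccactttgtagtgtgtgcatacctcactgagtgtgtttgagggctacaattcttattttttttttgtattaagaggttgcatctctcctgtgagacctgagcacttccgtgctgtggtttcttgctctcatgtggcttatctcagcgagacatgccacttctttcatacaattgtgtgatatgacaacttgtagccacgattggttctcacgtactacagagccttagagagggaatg
Clec4a, chr4:158100365-158100614, plus strand: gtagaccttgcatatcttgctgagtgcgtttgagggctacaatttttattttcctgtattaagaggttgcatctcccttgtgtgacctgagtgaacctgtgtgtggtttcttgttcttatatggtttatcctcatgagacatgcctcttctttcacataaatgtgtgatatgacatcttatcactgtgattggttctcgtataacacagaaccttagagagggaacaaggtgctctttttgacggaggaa
Aligned end to end, these stretches were 67.4% identical, the highest of the 21 pairs among the 7 neighbouring Clec4 genes. The other pairs lay between 47.7% and 54.4%. Clec4d and Clec4e, at 51.9%, did not stand out among them. Neither the Clec4a2 nor the Clec4a stretch holds TTNNGNAA. In both windows a match, TTCAGAAA, lies after the start and is not printed, at position 43 in Clec4a2 and 20 in Clec4a. Over the full windows TTNNGNAA was found in 24 of 36 genes (66.7%) and in 40.8% of all 27457 windows. Among the genes that rose it was found in 12 of 18 windows (66.7%), the same share as in all member windows. The motif thus did not set the genes that rose apart from the other members. The members' windows had a median GC content of 45.7% against 52.3% in all windows, and an AT-rich motif is met more often in AT-rich sequence. GAGGAAGT (bound by PU.1) was found in 1 of 36 windows (2.44% of all), GGG, 2 bases of any kind and TTTCC (NF-kB) in 0 (1.51%), GAAA, 2 bases of any kind and GAAA (interferon response) in 4 (3.77%), TGANTCA (AP-1) in 3 (7.33%) and TATAAA in 6 (14.3%), each on both strands. In Clec4d the interferon response match directly follows a TTNNGNAA match, and in Clec2g, Clec4a3, Tlr8 and Tlr11 matches overlap one another. No match says only that these letters are not in this window.

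After injection of human cells the receptor genes as a group stood at a higher share of the transcripts. Summed over the 41 genes the level was 1718 TPM in AdMSC 1 and 2196 TPM in SyMSC 1, against 637 TPM in PBS 1 and 639.96 TPM in PBS 2. Of the 31 tested genes 20 rose, 3 fell and 8 did not pass (limma on log2(TPM + 1), Benjamini-Hochberg adjusted p under 0.05 over all tested genes). Over all 13371 tested genes 48.4% passed, 23.7% higher and 24.7% lower. The median log2 change was 1.59 for the receptor genes and 0.0009 for all tested genes. Each log2 change is a difference of log2(TPM + 1), and for low genes it is smaller than the change in TPM. In 22 of the 31 genes both injected libraries lay above both PBS libraries and in 3 both lay below, while 39.5% and 39.4% of all tested genes did so. The genes Clec12b, Clec2d2, Clec4b2, Clec9a and Tlr10 reached the level needed for testing only through the injected libraries, so their direction was largely set by that filter and the counts are not independent of it. Fewer cells of a type and less RNA per cell cannot be told apart in bulk tissue.

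**Figure D1:**
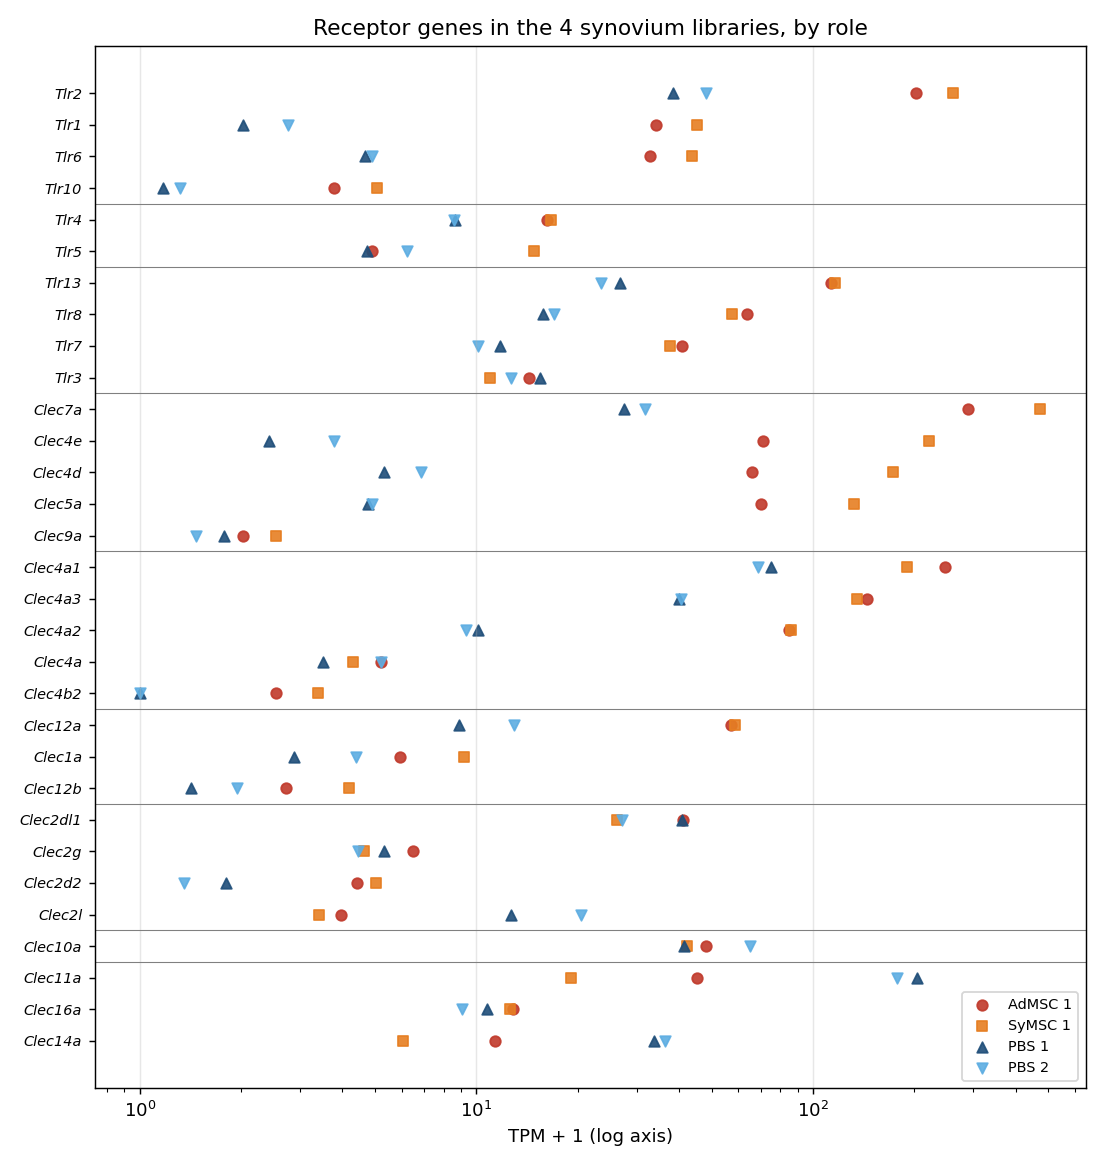
Level of the 31 tested receptor genes in each of the 4 libraries, as TPM + 1 on a log axis, with 1 symbol per library and grey lines between groups of genes with a similar role. AdMSC 1 and SyMSC 1 lie to the right of PBS 1 and PBS 2 for Tlr1, Tlr2, Tlr6 and most activating lectins, and to the left for Clec11a, Clec14a and Clec2l.

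The order of the genes by level differed between the groups. In the PBS libraries the mean was highest for Clec11a (189.8 TPM), followed by Clec4a1 (71.0), Clec10a (52.2), Tlr2 (42.3) and Clec4a3 (39.2). In the injected libraries it was highest for Clec7a (381 TPM), followed by Tlr2 (230.1), Clec4a1 (217), Clec4e (145) and Clec4a3 (139). The SDs of Tlr2 (40.8) and Clec4a1 (40.1) after injection exceed the gap between their means, so the order of these neighbours is not resolved. The places of Clec4e (SD 106) and Clec4d (SD 75.9) after injection are not resolved either, since SyMSC 1 was far above AdMSC 1 for both. By these means Clec4e stood at place 25 with PBS and place 4 after injection, Clec5a at 21 and 8, Clec4d at 18 and 6, Tlr1 at 26 and 13 and Clec11a at 1 and 17.

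The genes for the lipoprotein receptors rose in 4 of 4 cases. Tlr2, the common partner of these receptors, stood at 201 TPM in AdMSC 1, 259 TPM in SyMSC 1, 37.5 TPM in PBS 1 and 47.2 TPM in PBS 2. Both injected libraries were several times higher than either PBS library (log2 change 2.41, SE 0.18, limma adjusted p = 0.000419). Tlr1, whose product pairs with TLR2 on triacylated lipoproteins, was at 33.2 TPM in AdMSC 1, 44.4 TPM in SyMSC 1, 1.03 TPM in PBS 1 and 1.75 TPM in PBS 2. It had the largest change among the Tlr genes (log2 change 4.06, SE 0.22, limma adjusted p = 0.000246). Tlr6, whose product pairs with TLR2 on diacylated lipoproteins, was at 31.7, 42.6, 3.65 and 3.89 TPM in AdMSC 1, SyMSC 1, PBS 1 and PBS 2. The groups did not overlap (log2 change 2.99, SE 0.18, limma adjusted p = 0.00028). Tlr10, the third neighbour in this cluster, was low at 2.77 and 4.08 TPM in AdMSC 1 and SyMSC 1 and 0.17 and 0.32 TPM in PBS 1 and PBS 2 (log2 change 1.82, SE 0.22, limma adjusted p = 0.00153). Tlr10 reached the level needed for testing only through the injected libraries, so its direction was largely set by the filter. The fits with a library left out kept that filter and are no separate support for Tlr10. The partners did not keep their proportion: for every 100 TPM of Tlr2 there were 16.5 TPM of Tlr1 in AdMSC 1 and 17.1 in SyMSC 1, but 2.7 in PBS 1 and 3.7 in PBS 2. For Tlr6 the same measure was 15.7 and 16.5 in the injected libraries and 9.7 and 8.3 in the PBS libraries, so Tlr6 stood above Tlr1 with PBS and level with it after injection. The relation of these proportions to each other was not tested. These 4 rises passed in each of the 4 fits with 1 library left out.

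Of the other surface receptors, Tlr4 rose by less. Tlr4, the receptor of lipopolysaccharide, was at 15.2 TPM in AdMSC 1, 15.7 TPM in SyMSC 1, 7.62 TPM in PBS 1 and 7.56 TPM in PBS 2. Libraries of the same group were close to each other and the groups stood apart (log2 change 0.94, SE 0.14, limma adjusted p = 0.00292). Tlr5, the flagellin receptor, was at 3.88 TPM in AdMSC 1, 13.9 TPM in SyMSC 1, 3.74 TPM in PBS 1 and 5.23 TPM in PBS 2. Only the SyMSC library was high, AdMSC 1 lay between the PBS libraries, and the gene did not pass (log2 change 0.65, SE 0.60, limma adjusted p = 0.424). Without AdMSC 1 it passed (log2 change 1.45, limma adjusted p = 0.0103), and without SyMSC 1 its change was -0.16.

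Endosomal receptor genes rose in 3 of 4 tested cases, by similar amounts. Tlr13, which senses bacterial ribosomal RNA in rodents, was at 112 and 115 TPM in AdMSC 1 and SyMSC 1 and at 25.7 and 22.5 TPM in PBS 1 and PBS 2 (log2 change 2.19, SE 0.13, limma adjusted p = 0.000277). Tlr8 was at 62.6 and 56.5 TPM against 14.8 and 16.1 TPM (1.88, SE 0.13, limma adjusted p = 0.000356). Its neighbour Tlr7, a receptor of single-stranded RNA, was at 39.8 and 36.5 TPM against 10.7 and 9.09 TPM (1.85, SE 0.14, limma adjusted p = 0.000473). For these 3 genes the injected libraries differed from each other by less than they differed from the PBS libraries. Tlr3, the receptor of double-stranded RNA, did not follow: it was at 13.3 TPM in AdMSC 1, 9.97 TPM in SyMSC 1, 14.4 TPM in PBS 1 and 11.6 TPM in PBS 2. Its groups overlapped (log2 change -0.15, SE 0.19, limma adjusted p = 0.532). Tlr9, the receptor of unmethylated CpG DNA, lay under the filter at 0.28 to 0.48 TPM, and so did Tlr11 (0.17 to 0.56 TPM) and Tlr12 (0.27 to 0.61 TPM), which bind protozoan profilin in mice.

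Activating lectins rose in 4 of 5 cases, and Clec4e, Clec5a and Clec4d had the largest log2 changes of the 31 genes with 1 added to each TPM. With 0.1 added Tlr1 stood above Clec5a and Clec4d, and without SyMSC 1 it stood above Clec4d. Clec4e encodes Mincle, a receptor of mycobacterial glycolipid and of a nuclear protein released by dead cells. It was at 69.97 TPM in AdMSC 1 and 219.6 TPM in SyMSC 1, and at 1.42 TPM in PBS 1 and 2.77 TPM in PBS 2. The groups stood far apart, and the SyMSC library was higher than the AdMSC library by a ratio of TPM + 1 of 3.11. The log2 change was 5.37 (SE 0.68, limma adjusted p = 0.00934). Clec4d, which encodes the Mincle partner MCL, was at 64.9 TPM in AdMSC 1, 172 TPM in SyMSC 1, 4.31 TPM in PBS 1 and 5.86 TPM in PBS 2 (log2 change 4.15, SE 0.54, limma adjusted p = 0.00813). For every 100 TPM of Clec4d there were 107.8 and 127.5 TPM of Clec4e in AdMSC 1 and SyMSC 1 and 32.9 and 47.3 TPM in PBS 1 and PBS 2. Both calls were lost when a PBS library was left out, Clec4e at a limma adjusted p of 0.1 without PBS 1 and 0.0823 without PBS 2, Clec4d at 0.0832 and 0.0757. By construction the spread then comes from the difference between AdMSC 1 and SyMSC 1 alone.

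Clec5a, a receptor that signals through the adaptor DAP12 (gene Tyrobp), was at 69.3 TPM in AdMSC 1, 132 TPM in SyMSC 1, 3.75 TPM in PBS 1 and 3.88 TPM in PBS 2. The PBS libraries were nearly equal and the injected ones much higher (log2 change 4.33, SE 0.31, limma adjusted p = 0.000662). Clec7a encodes Dectin-1, the receptor of fungal beta-glucan. It was at 288 TPM in AdMSC 1, 473 TPM in SyMSC 1, 26.5 TPM in PBS 1 and 30.6 TPM in PBS 2. It was the most abundant member in both injected libraries (log2 change 3.65, SE 0.25, limma adjusted p = 0.00045). Clec9a, a receptor of dead-cell actin on cross-presenting dendritic cells, was just inside the filter at 1.02 and 1.53 TPM against 0.78 and 0.47 TPM and did not pass (limma adjusted p = 0.104). Clec2d, just outside it, was at 0.82, 0.72, 1.34 and 0.81 TPM in AdMSC 1, SyMSC 1, PBS 1 and PBS 2.

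**Figure D2:**
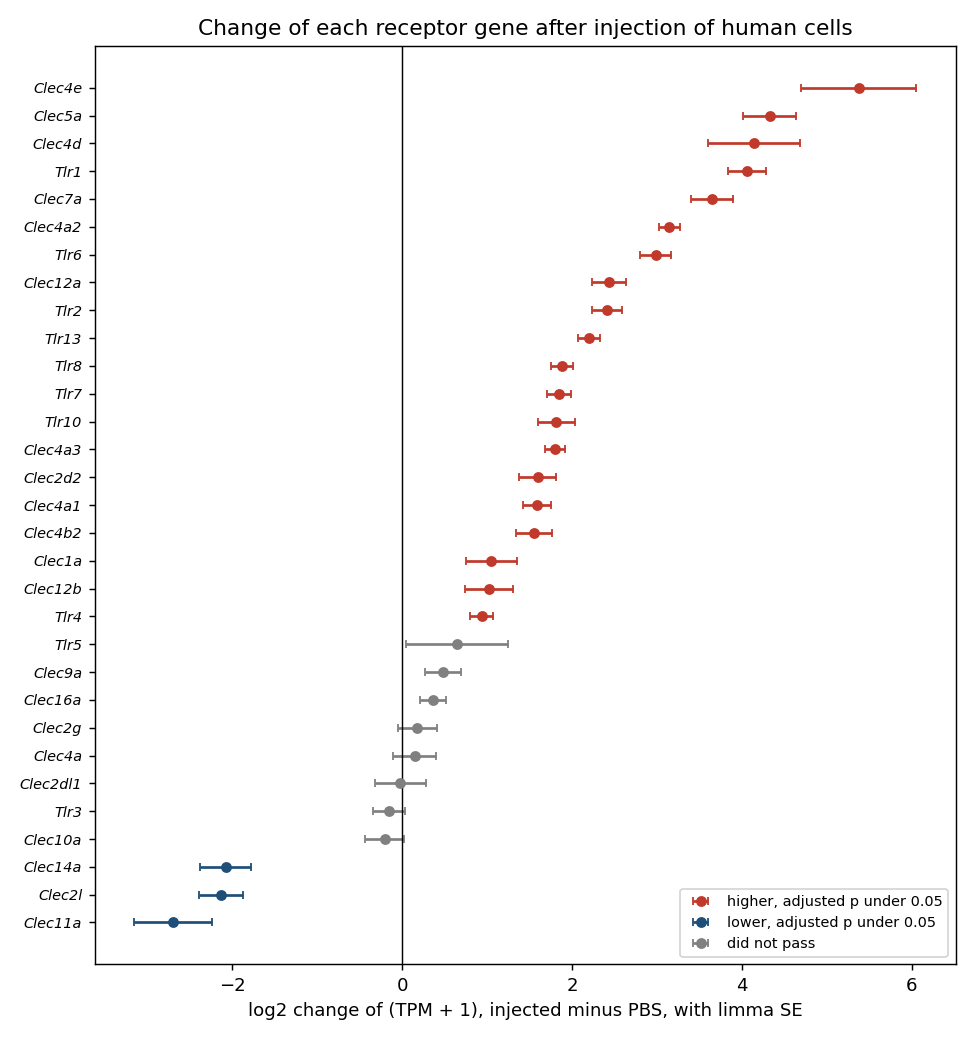
Log2 change of TPM + 1, injected minus PBS, for the 31 tested receptor genes, with the limma standard error as bars and colours for higher, lower and not passed. Clec4e (5.37) stands at the top, Clec5a, Clec4d and Tlr1 follow above 4, 8 genes near 0 did not pass, and Clec11a (-2.69) stands at the bottom.

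Of the neighbouring Clec4a and Clec4b genes 4 of 5 rose. These encode small lectins of myeloid cells, some of which carry an inhibitory motif. Clec4a2 was at 83.8 TPM in AdMSC 1, 85.3 TPM in SyMSC 1, 9.08 TPM in PBS 1 and 8.29 TPM in PBS 2. It had a small spread within each group and a large gap between them (log2 change 3.14, SE 0.13, limma adjusted p = 0.000161). Clec4a3 was at 144 and 135 TPM against 39.0 and 39.4 TPM (1.80, SE 0.12, limma adjusted p = 0.000323), and Clec4a1 at 246 and 189 TPM against 74.3 and 67.8 TPM (1.59, SE 0.16, limma adjusted p = 0.000935). Clec4b2 was listed at 0 in both PBS libraries and at 1.54 and 2.38 TPM in AdMSC 1 and SyMSC 1, so no fold is given (limma adjusted p = 0.00216). It reached the level needed for testing only through the injected libraries, so its direction was largely set by the filter. Clec4a itself overlapped between the groups, at 4.21, 3.30, 2.49 and 4.22 TPM in AdMSC 1, SyMSC 1, PBS 1 and PBS 2 (log2 change 0.15, SE 0.25, limma adjusted p = 0.648). The difference between these genes' changes was not tested. They are paralogs, and reads can be divided among them in a way that is not known here.

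Members of the Clec12 and Clec1 family rose in 3 of 3 tested cases. Of these, Clec12b reached the level needed for testing only through the injected libraries, so its direction was largely set by the filter. Clec12a, an inhibitory receptor of myeloid cells that binds uric acid crystals, was at 56.3 TPM in AdMSC 1, 57.8 TPM in SyMSC 1, 7.90 TPM in PBS 1 and 11.95 TPM in PBS 2. The injected libraries agree within a narrow range and lie well above both PBS libraries (log2 change 2.43, SE 0.20, limma adjusted p = 0.000499). Clec1a was at 4.93 and 8.17 TPM against 1.88 and 3.40 TPM (1.05, SE 0.30, limma adjusted p = 0.0304). Clec12b, an inhibitory receptor, was at 1.72 and 3.18 TPM against 0.42 and 0.94 TPM (1.02, SE 0.28, limma adjusted p = 0.0251). These low genes rested on single libraries. Clec1a was lost without PBS 1 (limma adjusted p = 0.107) or SyMSC 1 (0.144), and Clec12b without PBS 1 (0.0888) or SyMSC 1 (0.13). With no filter on low values neither passed (0.0687 and 0.0577). Clec1b, which encodes the podoplanin receptor of platelets, was under the filter at 0 to 0.69 TPM.

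Among the Clec2 genes, some of whose products are ligands of NK cell receptors, 1 of 4 tested rose, 1 fell and 2 did not pass. Clec2d2 was at 3.42 and 4.03 TPM in AdMSC 1 and SyMSC 1 and 0.80 and 0.35 TPM in PBS 1 and PBS 2 (log2 change 1.60, SE 0.22, limma adjusted p = 0.00226). This gene reached the level needed for testing only through the injected libraries, so its direction was largely set by the filter. Clec2l, known from nervous tissue, was at 2.95 and 2.40 TPM against 11.6 and 19.4 TPM and fell (-2.13, SE 0.26, limma adjusted p = 0.00154). Clec2dl1 was at 40.05 TPM in AdMSC 1, 25.2 TPM in SyMSC 1, 39.8 TPM in PBS 1 and 26.0 TPM in PBS 2. It differed between the Ad-titled and the Sy-titled libraries and hardly within a title (log2 change -0.02, SE 0.30, limma adjusted p = 0.964). Clec2g was at 5.50, 3.64, 4.30 and 3.44 TPM (limma adjusted p = 0.546). Clec2e reached at most 0.16 TPM. Clec10a, a galactose-binding lectin of macrophages and dendritic cells, was at 47.1 TPM in AdMSC 1, 41.1 TPM in SyMSC 1, 40.3 TPM in PBS 1 and 64.2 TPM in PBS 2. The groups overlapped and it did not pass (log2 change -0.20, SE 0.23, limma adjusted p = 0.496). The genes Clec4f, Clec4g and Clec4m, known from liver macrophages and sinusoids, were at 0 to 0.08 TPM in every library.

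The genes that carry the Clec name outside immune recognition held the other falls. Clec11a, the secreted growth factor gene of bone and marrow stroma, was at 44.1 TPM in AdMSC 1, 18.2 TPM in SyMSC 1, 203 TPM in PBS 1 and 176 TPM in PBS 2. Both injected libraries were lower than both PBS libraries (log2 change -2.69, SE 0.46, limma adjusted p = 0.0143), and the call was lost without PBS 1 (limma adjusted p = 0.109) or PBS 2 (0.0918). Clec14a, an endothelial gene, was at 10.3 and 5.06 TPM against 32.6 and 35.4 TPM (-2.08, SE 0.31, limma adjusted p = 0.00427). Endothelial markers moved in the same direction: 10 of 11 tested fell and 1 did not pass, their summed level was 277 to 326 TPM after injection and 862 to 954 TPM with PBS, and Robo4 was under 1 TPM in every library. Among them Cdh5 was at 26.0 and 21.3 TPM against 67.2 and 70.7 TPM and Pecam1 at 45.1 and 33.6 TPM against 145 and 173 TPM. The largest falls of the list were those of Emcn (-2.16), Vwf (-2.08), Pecam1 and Erg (-1.99). Of 11 fibroblast markers 8 fell and the other 3 missed the threshold, with sums of 9286 to 13550 TPM after injection and 24030 to 26950 TPM with PBS. Dpt (-3.35), Col6a3 (-2.05), Pdgfrb (-1.92) and Thy1 (-1.73) fell by the largest amounts among them. The part of these cell types in the falls of Clec14a and Clec11a was not tested. Clec16a was at 11.8 and 11.6 TPM against 9.73 and 8.08 TPM and did not pass (limma adjusted p = 0.1), and Clec3a reached 1 TPM in SyMSC 1 alone (2.97 TPM).

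The other genes of the pathway were read from lists of whole functional groups. List counts here and in the paragraphs that follow stand beside 23.7% of all tested genes higher and 24.7% lower. Of 10 co-receptor and chaperone genes 6 rose, 1 fell and 3 did not pass. Cd14, the lipopolysaccharide co-receptor, was at 518.5 and 527 TPM in AdMSC 1 and SyMSC 1 against 187 and 189 TPM in PBS 1 and PBS 2 (log2 change 1.47, SE 0.12, limma adjusted p = 0.000494). Ly96, which encodes MD-2, the protein that holds lipopolysaccharide on TLR4, was at 12.2, 10.1, 14.4 and 8.48 TPM in AdMSC 1, SyMSC 1, PBS 1 and PBS 2, with overlapping groups (limma adjusted p = 0.999). Tlr4 and Cd14 thus rose while Ly96 did not pass, and the difference between them was not tested. Unc93b1, which carries the endosomal TLRs to their compartment, was at 214.5 and 280.3 TPM against 69.6 and 93.9 TPM (1.59, SE 0.20, limma adjusted p = 0.00179). Cd180, a TLR-like receptor, rose as well (1.51), and the scavenger receptor gene Cd36 fell (-1.33, limma adjusted p = 0.019), a call that was lost without AdMSC 1 (0.12) or SyMSC 1 (0.0718).

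Of 22 adaptor and signalling genes 10 rose, 1 fell and 11 did not pass. Myd88 was at 140.1 and 159 TPM in AdMSC 1 and SyMSC 1 and at 69.0 and 72.5 TPM in PBS 1 and PBS 2 (log2 change 1.07, SE 0.13, limma adjusted p = 0.00154). Its change lay below that of Tlr1, Tlr2 and Tlr6. Pik3ap1, an adaptor to phosphoinositide 3-kinase, had the largest change of the list (2.45), followed by the TRIF-related adaptor gene Ticam2 (1.77), the transcription factor gene Irf5 (1.36) and the ubiquitin ligase gene Traf6 (1.24). The gene that fell was Irf3 (-0.64, limma adjusted p = 0.00729), named after its value was seen; the call was lost without PBS 2 (0.0582). Of 12 inhibitor genes 4 rose, 3 fell and 5 did not pass, beside 23.7% of all tested genes higher and 24.7% lower. Il1rl1 (1.63), Tnfaip3 (1.07), Cyld (1.02) and Tollip (0.78) rose, and Sigirr (-1.29), Socs1 (-1.06) and Sarm1 (-0.80) fell, where Cyld, Tollip and Sarm1 were named after their values were seen. Socs1 was lost without SyMSC 1 (0.0651), and Sarm1 without AdMSC 1 (0.0512) or SyMSC 1 (0.0686).

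Of 17 genes that signal behind the lectins 12 rose and the other 5 missed the threshold. Fcer1g, the Fc receptor gamma chain to which Mincle and MCL couple, was at 5322 TPM in AdMSC 1, 5187 TPM in SyMSC 1, 1417 TPM in PBS 1 and 1276 TPM in PBS 2 (log2 change 1.97, SE 0.12, limma adjusted p = 0.000304). Its transcripts were far more abundant than those of any receptor described here. Tyrobp was at 3556 and 4848 TPM against 767 and 881 TPM (2.34), the kinase gene Syk at 61.97 and 89.4 TPM against 12.95 and 13.9 TPM (2.39), and Card9 at 30.5 and 32.4 TPM against 10.04 and 10.01 TPM (1.56). The exchange factor gene Vav1 (2.68) rose too. Of 15 tested lectin receptors under other names 8 rose, 2 fell and the other 5 missed the threshold. The oxidised lipid receptor gene Olr1 (2.82), the NK receptor gene Klrb1b (2.50) and the sialic acid receptor genes Siglec1 (1.88) and Siglec5 (1.87) rose, and Colec12 (-0.87) and Cd93 (-0.54), named after their values were seen, fell. Klrb1b was lost without SyMSC 1 (0.0652), Siglec5 without PBS 1 (0.262) or PBS 2 (0.204), and Cd93 without SyMSC 1 (0.0563), PBS 1 (0.0862) or PBS 2 (0.0526). Of 11 cytosolic sensors 5 rose, 2 fell and the other 4 missed the threshold. The inflammasome sensor gene Nlrp3 (2.10), the peptidoglycan sensor gene Nod2 (2.06) and the DNA sensor gene Aim2 (1.84) rose, and Ddx58, which encodes the RNA sensor RIG-I, fell (-1.17). Of the others, named after their values were seen, Tmem173 (0.89) and Cgas (0.74) of the DNA-sensing pathway rose and Mavs (-0.58), the adaptor of RIG-I, fell. The direction of Cgas was largely set by the filter, since it reached the level needed for testing only through the injected libraries. Cgas was lost without AdMSC 1 (0.125), SyMSC 1 (0.0968) or PBS 2 (0.121), and Mavs without PBS 2 (0.0651).

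Of 18 genes for endogenous ligands 7 rose and 6 fell, and the other 5 missed the threshold. Biglycan (Bgn), a matrix proteoglycan that can act on TLR2 and TLR4 when released, was at 1273 and 781 TPM in AdMSC 1 and SyMSC 1 and 4447 and 3782 TPM in PBS 1 and PBS 2 (log2 change -2.04, limma adjusted p = 0.00203). The alarmin gene S100a9 rose (4.42), a call lost without AdMSC 1 (0.135) or SyMSC 1 (0.178). Its partner S100a8 was at 628 and 1149 TPM against 109 and 30.7 TPM (3.84, limma adjusted p = 0.0364), a call lost without AdMSC 1 (0.164) or SyMSC 1 (0.217). Mmrn2, which encodes a vascular matrix ligand of the Clec14a product, fell together with that gene, from 41.7 and 44.6 TPM in PBS 1 and PBS 2 to 11.4 and 10.2 TPM (-1.91, limma adjusted p = 0.000366).

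**Figure D3:**
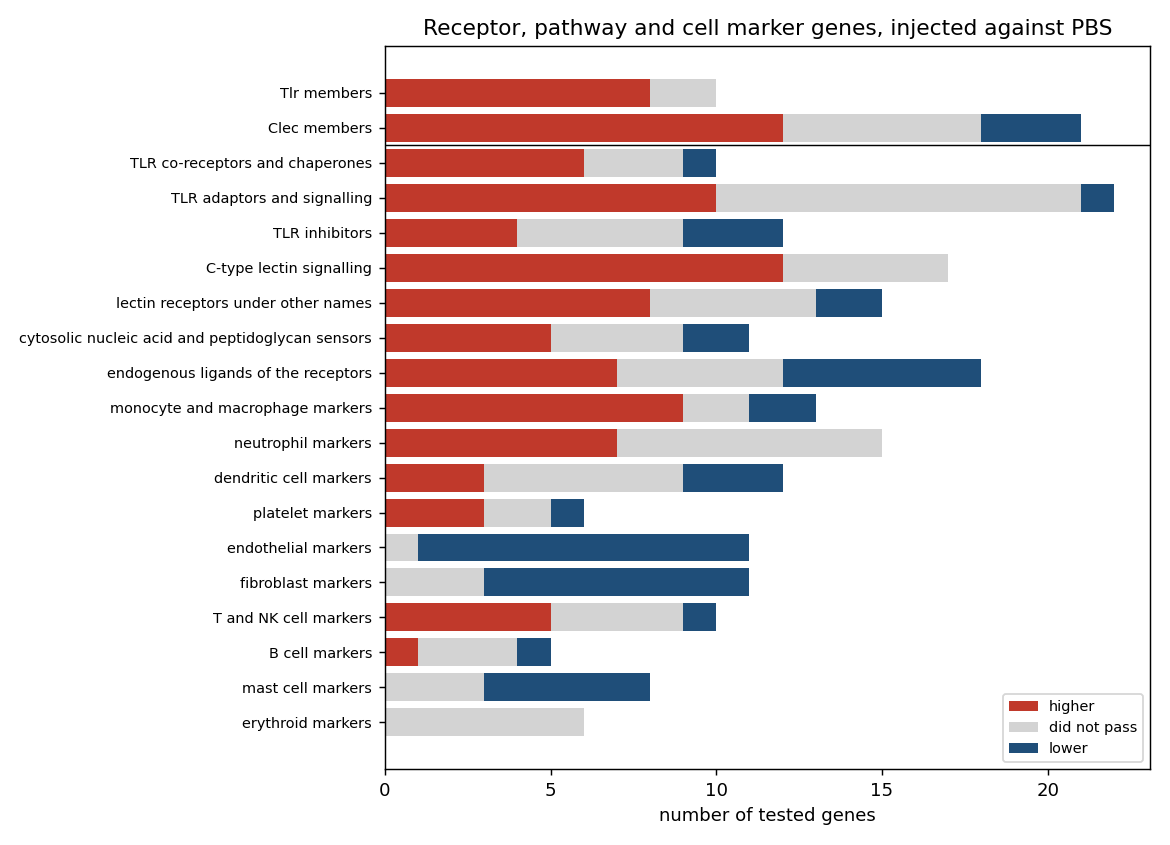
Number of tested genes that were higher, lower or did not pass in injected against PBS libraries, for the Tlr and Clec genes (top) and for each list of pathway genes and cell type markers; a gene can stand in several lists. The receptor genes hold 8 of 10 (Tlr) and 12 of 21 (Clec) higher calls, the lectin signalling list 12 of 17, and the endothelial list 10 of 11 lower calls.

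Markers of macrophages and neutrophils moved with the receptor genes in part. Of 13 tested monocyte and macrophage markers 9 rose, 2 fell and 2 did not pass, with a median log2 change of 1.40 and a summed level of 27560 to 37050 TPM after injection and 11890 to 13930 TPM with PBS. Itgam, the integrin chain of macrophages and neutrophils, was at 128 and 136 TPM in AdMSC 1 and SyMSC 1 against 17.2 and 15.6 TPM in PBS 1 and PBS 2 (2.94). Fcgr1a (2.86), a high-affinity Fc receptor gene, and Msr1 (2.51), a scavenger receptor gene, rose as well. The markers that fell were the complement genes C1qb (-0.65) and C1qc (-0.91), named after their values were seen; C1qb was lost without AdMSC 1 (0.105), SyMSC 1 (0.0922) or PBS 2 (0.137). Of 15 tested neutrophil markers 7 rose and 8 did not pass, with a median of 2.83 and a sum of 2772 to 5048 TPM against 183 to 375 TPM, and Cxcr1, Ltf and Fpr2 were under 1 TPM in every library. Csf3r was at 418 and 538 TPM against 4.73 and 11.7 TPM. Mcemp1 (5.86), Il1r2 (5.75) and Cxcr2 (5.64) rose too. The call of Cxcr2 rested on SyMSC 1 (0.0569 when it was left out), and that of Il1r2 on either injected library (0.0742 without SyMSC 1 and 0.0598 without AdMSC 1). Of 12 tested dendritic cell markers 3 rose, 3 fell and the other 6 missed the threshold (sums 303 to 317 TPM against 265 to 321 TPM, Xcr1 under 1 TPM in every library). These counts are near the share over all tested genes, of which 23.7% rose and 24.7% fell. Itgax (2.64), Irf8 (1.58) and Ccr7 (1.56) rose, and Zbtb46 (-0.91), Tcf4 (-0.50) and Bst2 (-0.50) fell, the last pair named after their values were seen. Of these 6 only Irf8 passed in each fit with 1 library left out, and Itgax was also lost with the title as a block (limma adjusted p = 0.0585). Platelet markers were low, at 68.6 to 107 TPM summed after injection and 56.7 to 60.7 TPM with PBS. Of 6 tested 3 were higher and 1 lower, and Gp9, Gp1ba, Gp5 and Tubb1 were under 1 TPM in every library. Gp6 and Treml1 reached the level needed for testing only through the injected libraries and Itga2b only through the PBS libraries. The directions of these genes were thus largely set by the filter. Gp6 (2.07), Itgb3 and Treml1 (0.91) rose, and Itga2b fell (-0.98), a call lost without AdMSC 1 (0.0606).

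T and NK cell markers rose in 5 of 10 tested cases, led by Cd8a (4.44) and Cd8b (3.49), with Cd2 (3.04), Cd3g (1.20) and Cd3e (0.84). Cd4 fell (-0.63), the other 4 did not pass, and Gzmb was under 1 TPM in every library. These are all calls of the list, so Nkg7, Prf1, Ncr1 and Klrd1, which also stand in it, had none. Cd3e and Cd4 were named after their values were seen, and both calls were lost in at least 1 fit with a library left out (Cd3e at 0.0672 without PBS 1 and 0.0854 without SyMSC 1, Cd4 at 0.0828 without PBS 2). The 5 tested B cell markers held 1 higher call (Blnk, 1.99) and 1 lower call (Fcmr, -1.09), while 3 missed the threshold. Such counts are near the share over all tested genes, 23.7% higher and 24.7% lower. Mast cell markers fell in 5 of 8 cases. Of these, Hpgds and Ms4a2 reached the level needed for testing only through the PBS libraries, so their direction was largely set by the filter. Gata2 (-1.88) and Tpsab1 (-1.49) kept their calls in the 4 fits with a library left out, while Tpsb2 (-1.52), Hpgds (-1.07) and Ms4a2 (-0.67, named after its value was seen) each lost theirs in at least 1. With the title as a block Hpgds (limma adjusted p = 0.0643) and Ms4a2 (0.0619) were lost as well. Of 6 erythroid markers 0 passed (limma), and 0 did so at an unadjusted p under 0.05. Their summed level was 5314 TPM in AdMSC 1, 11250 TPM in SyMSC 1, 21720 TPM in PBS 1 and 7671 TPM in PBS 2, so PBS 1 was the highest. The most abundant of them, Hba1 (-0.75, limma adjusted p = 0.469), Hbb (-0.67, 0.509), Alas2 (-0.62, 0.552) and Ahsp (-0.15, 0.923), did not pass. The part of these cells in the receptor changes was not tested.

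The cell sources were compared next, each with 1 library. In the Ad-titled pair 14 of the 31 genes had a ratio of TPM + 1 of at least 2 with at least 5 TPM in the higher library, and 3 were lower by as much. Over all tested genes 9% were higher and 9.89% lower in that pair. In the Sy-titled pair 16 receptor genes were higher and 3 lower, beside 10.4% and 12.2% of all tested genes. The genes that were lower were Clec11a, Clec14a and Clec2l in both pairs. Clec4e had the highest ratio in each pair, 29.3 in the Ad pair and 58.5 in the Sy pair. Tlr1 reached 16.9 and 16.5, and Clec4a2 reached 8.42 and 9.29. With the PBS libraries exchanged the ratio of Clec4e was 18.8 in AdMSC 1 and 91.2 in SyMSC 1. Clec1a and Tlr5 were listed in the Sy pair and not in the Ad pair. For Clec1a the ratios were nearly equal (2.06 in the Ad pair and 2.08 in the Sy pair), and it was not listed in the Ad pair because AdMSC 1, at 4.93 TPM, was under the 5 TPM needed. For Tlr5 they were 1.03 and 2.38, and this difference was not tested.

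With the 3 groups kept apart in limma, where the spread comes from the PBS pair alone and each single library is assumed to vary like it, 18 receptor genes were higher and 3 lower in AdMSC 1 against PBS. This compares with 17.9% higher and 16.5% lower over all tested genes. In SyMSC 1 against PBS 21 were higher and 3 lower, beside 18.2% and 22% of all tested genes. These comparisons share the PBS libraries, and with no filter on low values 0 receptor genes passed in either.

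**Figure D4:**
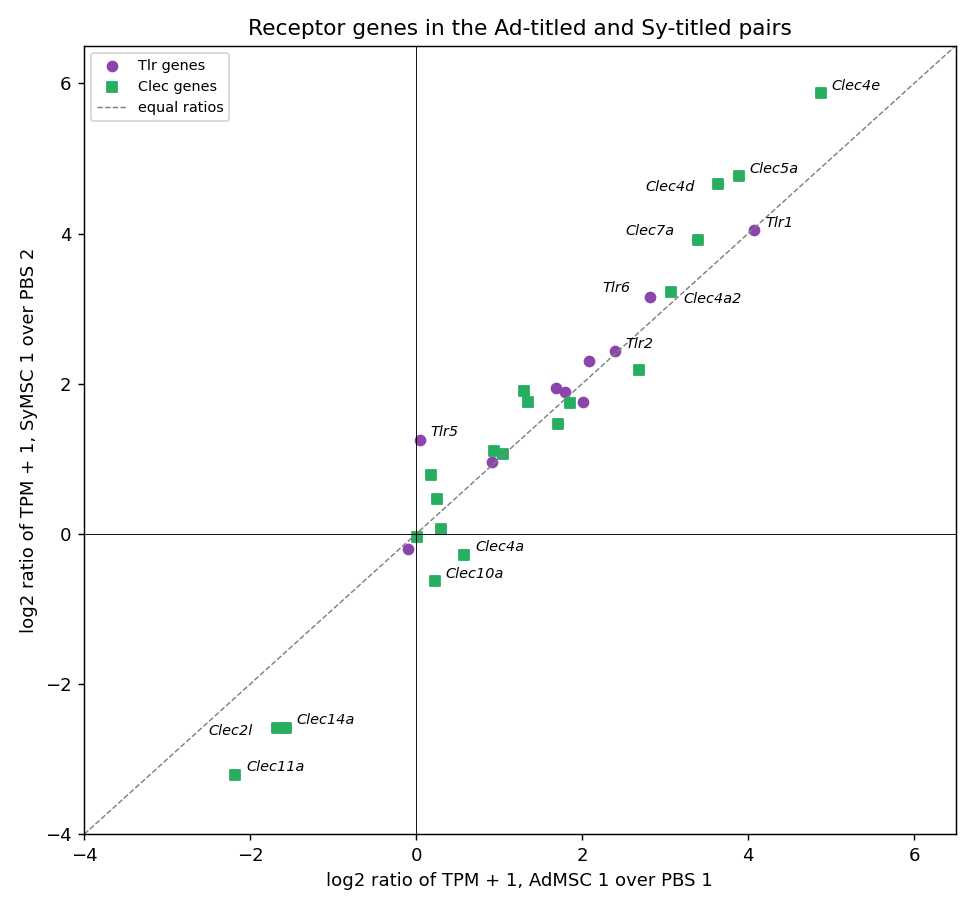
Log2 ratio of TPM + 1 in the Ad-titled pair (AdMSC 1 over PBS 1, horizontal) and in the Sy-titled pair (SyMSC 1 over PBS 2, vertical) for the 31 tested receptor genes, 1 point per gene, with a dashed line of equal ratios. Clec4e, Clec4d, Clec5a, Clec7a and Tlr5 lie above the line, Tlr1 and Clec4a2 close to it, and Clec11a, Clec14a and Clec2l below it in the lower left.

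Between the injected libraries 3 receptor genes were at least 2-fold higher in SyMSC 1 than in AdMSC 1, beside 1.1% of all tested genes, and 1 was lower, beside 0.546%. The higher genes were Clec4e (ratio of TPM + 1 of 3.11), Tlr5 (3.04) and Clec4d (2.63), and Clec5a (1.89) and Clec7a (1.64) came next above 1.6. Clec11a was the lower one (0.425). In contrast, Clec12a (1.03), Tlr13 (1.03), Clec4a2 (1.02), Tlr7 (0.919) and Tlr8 (0.905) stood at nearly the same level in both injected libraries. Neutrophil markers differed in the same direction as Clec4e and Clec4d: 7 of 15 were at least 2-fold higher in SyMSC 1, with a median log2 ratio of 1.26, while 0 of 13 monocyte and macrophage markers were, with a median of 0.18. Other marker lists differed too: 6 of 6 erythroid markers were at least 2-fold higher in SyMSC 1 (median 1.49), B cell markers had a median of 0.90 with 1 of 5 higher, and 2 of 8 mast cell markers were lower. The PBS libraries differed from each other in these lists as well. The median log2 ratio of PBS 2 over PBS 1 was -0.88 for neutrophil markers and 0.18 for monocyte and macrophage markers. For erythroid markers it was -1.77, for B cell markers -0.66 and for mast cell markers 0.3. The part of these cells in the difference was not tested. In limma with 3 groups 0 of all tested genes passed between SyMSC 1 and AdMSC 1, with a smallest adjusted p of 0.254. At an unadjusted p under 0.05 there were 861 of 13371 genes. Between the PBS libraries 0 receptor genes differed 2-fold with at least 5 TPM, beside 0.725% of all tested genes higher and 0.972% lower in PBS 2.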

How the data were processed

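The authors deposited TPM per rat gene, per the file header, for 4 libraries, each column scaled to the same sum over 17899 genes. HISAT2 2.0.4 and the build Rnor_6.0 are named in the submitters' processing notes, with no role stated. How reads were counted, whether strand was used and whether human reads were taken out first is not given in the sources used here. Read depth is lost in TPM, so the precision of low values is unknown, and because columns sum alike, higher abundant genes push the rest down. The mRNA was captured with oligo-dT beads and the second cDNA strand made with dUTP, per the labels' protocols.

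The genes that reached 1 TPM in 2 or more libraries entered limma 3.58.1 (R 4.3.3) as log2(TPM + 1), injected against PBS, with the trend and robust settings of eBayes and Benjamini-Hochberg adjustment over all 13371 tested genes. The fit was tested on simulated data. Where 1 library was set against 1, ratios of TPM + 1 are given with no test. The alternatives were median-ratio (RLE) and upper-quartile scaling, other filters, a pseudocount of 0.1, eBayes without trend and robust options, the title as a block, each library left out, and other limits for the pairs.

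The 41 members, the 17 lists (pathway genes and cell markers, 217 of 222 genes found in the table) and the tests were chosen with earlier results of these data known. Every member past the filter is named with values. Of each list up to 4 genes are named by rule, by largest called change or, with no call, by highest mean level, together with Myd88, Cd14, Ly96, Syk, Card9, Fcer1g, Tyrobp, Csf3r, Itgam, Cdh5 and Pecam1. Where a list had 5 or fewer calls in a direction, the remaining ones are named too, and said to be chosen after their values were seen. 1 gene that this rule names is not reported here. 5 rows that repeat a symbol were kept under their gene ID. Sequences are from RefSeq (GRCr8), a later assembly than that of the expression table, and no coordinates were moved between them. A planned comparison of protein sequences was not made.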

Additional observations from a re-analysis of the deposited data

Results flagged for a closer look

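Clec2dl1, a gene of the Clec2 family, lay above both PBS libraries in AdMSC 1 (40.05 TPM) and below both in SyMSC 1 (25.2 TPM), with 39.8 TPM in PBS 1 and 26.0 TPM in PBS 2. The cell sources therefore stood on opposite sides, with a ratio of TPM + 1 of 0.637 for SyMSC 1 over AdMSC 1. The difference was not tested, and each library lay within 1 TPM of the PBS library with which it shares a title.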

How the results depend on the processing

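Of the 336 log2 changes of the 31 receptor genes under alternative settings, 315 kept their direction and their side of the threshold, 12 kept the direction and lost the call, 1 gained a call and 8 changed sign. The receptor genes called numbered 23 in the reported fit and 18 to 24 with 1 library left out, 21 with no filter and 19 where every library had to reach 1 TPM. The count over all genes was 6476 in the reported fit and 4590 to 5379 with 1 library left out. The causes of the changes below were not tested.

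The changes of sign were all in genes without a call in the reported fit. With 1 library left out, the log2 change ranged from -0.53 to 0.13 for Clec10a, -0.34 to 0.31 for Clec2dl1, -0.06 to 0.42 for Clec2g, -0.14 to 0.44 for Clec4a, -0.35 to 0.04 for Tlr3 and -0.16 to 1.45 for Tlr5, and Clec2dl1 was at 0.03 with RLE scaling. Among list genes it ranged from -0.35 to 0.35 for Ly96 (-0.05 with upper-quartile scaling), -1.50 to 0.01 for Hba1, -1.33 to 0.00 for Hbb, -1.40 to 0.15 for Alas2 and -1.15 to 0.85 for Ahsp. In the fit of 3 groups with no filter, 0 receptor genes passed in either cell source against PBS. At a 1.5-fold limit, 6 were higher and 3 lower in SyMSC 1 against AdMSC 1, and 2 were higher and 1 lower in PBS 2 against PBS 1. With a pseudocount of 0.1, 2 were lower in SyMSC 1 against AdMSC 1.

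The Ad and Sy titles are not said to mark shared animals. The correlation of deviations between libraries of the same title was 0.117 over 2 pairs. With the title as replicate block 23 receptor genes and 6590 genes in all were called, and no receptor gene changed its call; of the named list genes Itgax (0.0585), Hpgds (0.0643) and Ms4a2 (0.0619) lost theirs. The depth of the libraries is unknown, so the precision of the low genes cannot be given. A planned comparison of protein sequences was not run.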
